A study of Mus musculus with 8 samples.

Results

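Interferon-gamma chemokines and GTPases were followed in the livers of young mice with cystic fibrosis (CF) as a set of 8 genes, namely Cxcl9, Cxcl10, Gbp2, Gbp3, Igtp, Irgm1, Iigp1 and Irf1. They were taken by gene symbol from an expression array that named 16593 genes, and all 8 had at least 1 probe. Each gene was read on its probe of highest mean over the 8 arrays. The 4 CF livers came from female mice of strain C57BL/6, 3 weeks old, carrying the ΔF508 change in Cftr, the gene of the chloride channel that is mutated in cystic fibrosis. The 4 wild-type (WT) livers came from their littermates of the same sex, age and strain. Both genotypes received an enriched diet from weaning at 21 days until death at 23 days, and their drinking water was replaced by a diluted laxative of polyethylene glycol and electrolytes. ΔF508 is a small deletion in the coding sequence of Cftr in all cells of the animal, so the level of the Cftr transcript is no check of the genotype. The labels number 4 replicates per genotype and do not state that each is a separate mouse, so p-values measure the spread between these samples.

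Interferon-gamma is a cytokine made mainly by natural killer (NK) cells and T cells. It binds the receptor chains Ifngr1 and Ifngr2, and the kinases Jak1 and Jak2 then start a signal that acts at GAS sites in promoters and induces the transcription factor Irf1, among other genes. Irf1 and complexes that hold Irf9 bind the interferon-stimulated response element (ISRE), through which type I interferon also acts. The chemokines Cxcl9 and Cxcl10 draw cells that carry the receptor Cxcr3, mostly activated T and NK cells. The guanylate-binding proteins Gbp2 and Gbp3 and the immunity-related GTPases Igtp, Irgm1 and Iigp1 act at the membranes of vacuoles that hold intracellular pathogens. Igtp and Irgm1 regulate the other immunity-related GTPases, of which Iigp1 is an effector.

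Promoter windows from RefSeq (GRCm38.p6), each from 250 bases before to 50 bases after a start of transcription, were available for 7 of the 8 genes. They are shown because both response elements can be read in them. The ISRE core was searched as GAAA, any 2 bases and GAAA again, and the GAS element as TTCNNNGAA on both strands, with overlapping matches counted separately. Of 27025 genes with windows of 300 bases in the table, 3.99% held the ISRE core and 9.55% held the GAS element in at least 1 window. Among the 7 genes with a window, 5 held the ISRE core and 2 held GAS. In the stretches below, given 5′ to 3′ along the gene with 20 bases on each side, capitals mark the matches.
Gbp3, chr3:142559979-142560034 (+): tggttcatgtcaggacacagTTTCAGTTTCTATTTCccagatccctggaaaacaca
Gbp2, chr3:142620584-142620633 (+): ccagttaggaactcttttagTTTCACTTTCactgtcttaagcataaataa
Irgm1, chr11:48871415-48871470 (-): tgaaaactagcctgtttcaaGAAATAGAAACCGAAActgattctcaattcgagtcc
Igtp, chr11:58199491-58199551 (+): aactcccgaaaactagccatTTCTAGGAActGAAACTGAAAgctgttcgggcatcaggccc
Cxcl10, chr5:92349073-92349122 (-): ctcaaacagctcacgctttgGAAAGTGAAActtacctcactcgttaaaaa
Irf1, chr11:53769904-53769952 (+): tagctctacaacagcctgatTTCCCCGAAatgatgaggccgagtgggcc
Gbp3 and Irgm1 each held 2 overlapping ISRE cores, while Gbp2 and Cxcl10 each held 1. Igtp held a GAS element followed by an ISRE core, and Irf1 held a GAS element alone. The matches began 45, 59, 30, 45, 213 and 90 bases before the start in the order listed, so that of Cxcl10 lay farthest upstream. In Gbp3 and Irf1 the match lay in 1 of 2 windows. The single window of Cxcl9, the gene with the largest difference, held neither run of letters and is printed whole without capitals.
Cxcl9, chr5:92328030-92328329 (-): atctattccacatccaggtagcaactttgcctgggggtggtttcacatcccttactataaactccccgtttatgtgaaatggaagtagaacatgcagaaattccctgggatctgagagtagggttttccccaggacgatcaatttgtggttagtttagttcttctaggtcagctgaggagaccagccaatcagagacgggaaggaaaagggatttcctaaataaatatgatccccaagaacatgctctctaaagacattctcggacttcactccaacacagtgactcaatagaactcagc
A match is a run of letters and not a measured binding site. Other forms of either element were not searched, so a window without a match may still hold a response element.

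Levels are the deposited log2 values, which the authors had already brought to a common distribution over arrays, and every difference is that of CF minus WT, given with its standard error (SE). A value counted as above background where it exceeded 6.46, and 9154 named genes with a probe that did so on 4 or more arrays entered the test. Arrays have no read depth, so their number limits the precision. Over the tested probes the SE of the log2 difference had a median of 0.09. Exocrine pancreas transcripts varied widely between arrays within each genotype, with a mean level over 9 such genes of 7.35 to 12.13 in CF and 7.09 to 12.50 in WT, highest in CF 1 and WT 3. The calls of named genes that were lost without these 2 arrays are given beside them. In whole liver, fewer cells of a type and less RNA per cell cannot be told apart.

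Of the 8 genes, 4 were lower in CF livers, 0 were higher, 3 did not pass the test, and Iigp1 was under background on every array. The 4 that fell were Cxcl9, Gbp3, Gbp2 and Irgm1 (limma with Benjamini-Hochberg adjustment over all tested probes, adjusted p under 0.05). Of all tested genes 19.8% were called in either direction, 8.78% were called lower and 11.0% were called higher. The arrays of both genotypes did not overlap for these same 4 genes, CF below WT in each, where 10.5% of all tested genes had CF entirely below WT. The median difference of the 7 tested genes was -0.28, against 0.02 over all tested genes. Cxcl9 and Gbp3 were called in each fit that left out a library, while Gbp2 and Irgm1 were not. The count of fallers was 2 without CF 3, 2 without WT 2 and 2 without WT 3, against 3 or 4 without any other single library. Without WT 1 the 3 were Cxcl9, Gbp3 and Cxcl10, as Gbp2 and Irgm1 were lost and Cxcl10 was gained.

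**Figure D1:**
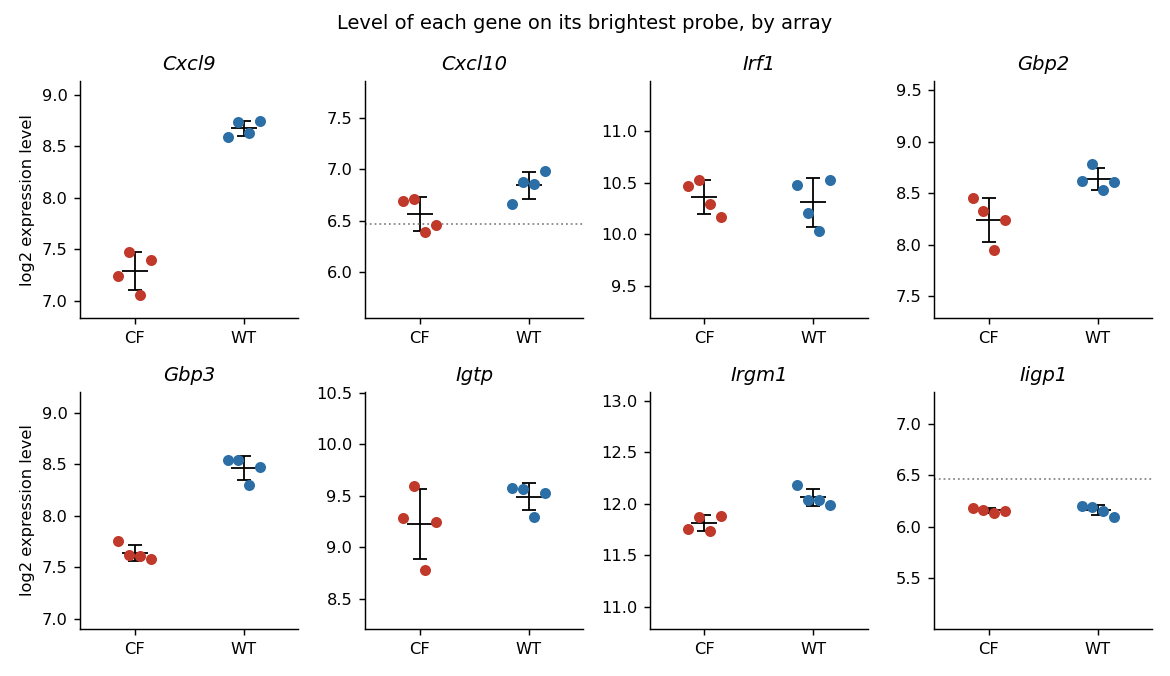
Log2 expression level (vertical axis, each panel spanning the same range) of the 8 genes on their brightest probes in the 4 CF and 4 WT livers. Points are arrays, the long tick and bars are the mean and SD, and the dotted line, where in range, is the background level of 6.46. The CF points lie below all WT points for Cxcl9, Gbp2, Gbp3 and Irgm1, and Iigp1 lies under background throughout.

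Cxcl9, which encodes the chemokine MIG, had the largest difference of the set. Its log2 level was 7.24, 7.47, 7.06 and 7.39 in CF 1 to CF 4, and 8.59, 8.73, 8.63 and 8.74 in WT 1 to WT 4. The WT arrays lay close together, and the highest CF array was more than 1 log2 unit below the lowest WT array. The means were 7.29 ± 0.18 in CF and 8.67 ± 0.07 in WT (SD, n = 4 each), a difference of -1.38 ± 0.09 SE, or 2.61-fold lower (limma adjusted p = 5.52e-05). The exact two-sided permutation of the difference gave p = 0.0286, the smallest that 70 assignments of 4 against 4 arrays allow. Over 17 alternative fits, listed with the dependence on processing, the difference of Cxcl9 stayed between -1.44 and -1.31, with adjusted p from 1.10e-05 to 0.00169.

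Cxcl10, which encodes the chemokine IP-10 and lies on chromosome 5 with Art3 between it and Cxcl9 in the RefSeq gene order, did not pass. It stood at 6.69, 6.71, 6.39 and 6.46 in the CF arrays and at 6.66, 6.88, 6.85 and 6.98 in the WT arrays. The groups overlapped through WT 1, and the probe was dim, with CF 3 and CF 4 under background. The difference was -0.28 ± 0.10 SE, with a 95% interval of -0.50 to -0.06 and adjusted p = 0.0773 by limma. Left without WT 1, Cxcl10 had a difference of -0.34 and adjusted p = 0.0483, the single one of its 16 alternative fits that passed. With 2 CF arrays under background, a fall of Cxcl10 could be read only as far as the background level, so its size was not set against that of Cxcl9.

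Of the guanylate-binding proteins, Gbp3 fell the more. Its level was 7.76, 7.61, 7.61 and 7.58 in the CF arrays, and 8.54, 8.54, 8.30 and 8.47 in the WT arrays. The CF arrays were all within 0.2 of each other and well below every WT array. The difference was -0.82 ± 0.08 SE, or 1.77-fold lower (limma adjusted p = 0.000244), with adjusted p from 0.000139 to 0.00375 over 17 alternatives. A second probe of Gbp3, which is dimmer, had a difference of -0.70 ± 0.09 SE (adjusted p = 0.00134) with no overlap either.

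Gbp2 stood at 8.45, 8.33, 7.95 and 8.24 in the CF arrays, and at 8.62, 8.78, 8.53 and 8.61 in the WT arrays. CF 3 was the lowest and CF 1 lay just under WT 3, the lowest WT array. The difference was -0.39 ± 0.11 SE, or 1.31-fold lower (limma adjusted p = 0.0333). Its other 2 probes were under background on every array and give no level. The call was kept without CF 1 and without CF 2, and lost on omission of each of the other 6 libraries. The adjusted p was 0.0524 without CF 3, 0.0660 without CF 4, 0.0613 without WT 1, 0.0820 without WT 2, 0.0533 without WT 3 and 0.0640 without WT 4. Within these arrays the fall of Gbp3 was larger than that of Gbp2 (Gbp3 minus Gbp2, CF minus WT -0.43 ± 0.10 SE). The exact permutation of this difference gave p = 0.0286 before adjustment. It was 1 of 3 pairs of genes, all chosen after the values were seen, and that of both chemokines was not used. The p is therefore a description of these arrays, and no adjusted p is given.

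Both genes lie in a run of guanylate-binding protein genes on chromosome 3, where RefSeq places Gbp5, Gbp7, Gbp3, Gbp2b and Gbp2 next to each other. Gbp7 fell as well, with a mean of 6.91 ± 0.09 in CF livers and 7.25 ± 0.10 in WT livers (difference -0.34 ± 0.07 SE, limma adjusted p = 0.0138). Without WT 3 and CF 1 together, Gbp7 had adjusted p = 0.0912. Gbp2b had a difference of -0.20 ± 0.15 SE and did not pass, and Gbp5 was under background. The family shares much sequence, and whether each probe reads 1 member was not tested.

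**Figure D2:**
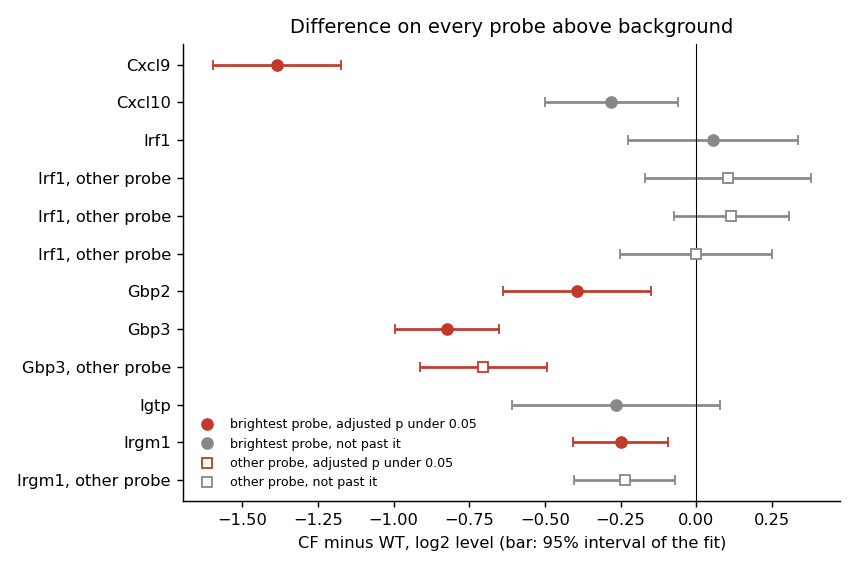
Difference in log2 level, CF minus WT (horizontal axis), with its 95% interval, for the 12 probes of the set above background, 1 row per probe. Filled circles are the probe of highest mean of each gene and open squares are other probes, in red where adjusted p was under 0.05. Both probes of Gbp3 lie clear of 0, the 2 probes of Irgm1 have nearly equal differences on either side of the threshold, and the 4 probes of Irf1 lie around 0.

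Of the immunity-related GTPases, Irgm1 fell by a small amount. Its level was 11.75, 11.87, 11.74 and 11.89 in the CF arrays, and 12.18, 12.04, 12.04 and 11.98 in the WT arrays. The groups did not overlap, yet CF 4 and WT 4 were within 0.1 of each other. The difference was -0.25 ± 0.07 SE, or 1.19-fold lower (limma adjusted p = 0.0344). A second probe had a difference of -0.24 ± 0.07 SE, without overlap, and adjusted p = 0.0543. The last of its 3 probes was under background. The call of Irgm1 was kept without CF 2, CF 4 or WT 4 and lost with adjusted p = 0.0858 without CF 1, 0.0810 without CF 3, 0.0695 without WT 1, 0.0649 without WT 2 and 0.0749 without WT 3. It was also lost without WT 3 and CF 1 together, at adjusted p = 0.160.

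Igtp, also called Irgm3, stood at 9.29, 9.59, 8.78 and 9.24 in the CF arrays, and at 9.58, 9.57, 9.29 and 9.53 in the WT arrays. CF 2 was the highest of all 8 arrays and CF 3 the lowest, so the groups overlapped. The difference was -0.27 ± 0.15 SE, with a 95% interval of -0.61 to 0.08 and adjusted p = 0.264 by limma. Without CF 3 the difference was -0.12 (adjusted p = 0.519). For Igtp minus Irgm1 within arrays, CF minus WT was -0.02 ± 0.16 SE (exact permutation p = 0.886). A difference between the 2 GTPases was thus not detected, and the wider spread of Igtp over the CF arrays left its own difference undecided. Irgm2, a further regulator of the same kind that RefSeq places beside Igtp on chromosome 11, had a difference of -0.42 ± 0.19 SE and did not pass (adjusted p = 0.155).

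Iigp1, the effector GTPase also called Irga6, was not detected on either of its 2 probes. On the brighter one it stood at 6.16 ± 0.02 in CF and 6.16 ± 0.05 in WT, under the background level on all 8 arrays. It was not tested, and no difference can be read from values below background.

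Irf1, the transcription factor of the set, did not pass. Its level was 10.47, 10.52, 10.29 and 10.17 in the CF arrays, and 10.47, 10.20, 10.03 and 10.53 in the WT arrays. The 2 genotypes covered nearly the same range. The difference was 0.05 ± 0.13 SE, with a 95% interval of -0.23 to 0.34 (adjusted p = 0.811 by limma), so a fall of the size of that in Gbp3 lies outside the interval. On 3 further probes above background the differences were 0.10, 0.12 and 0.00 with adjusted p of 0.598, 0.383 and 1. The sign of Irf1 turned without WT 3, to -0.04, and without WT 3 and CF 1 together, to -0.07.

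Set beside the promoter stretches printed above, ISRE cores were held by Gbp3, Gbp2 and Irgm1, which fell, and by Cxcl10 and Igtp, which did not pass. Cxcl9 fell most and held neither run of letters in its window, where other forms of either element were not searched.

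**Figure D3:**
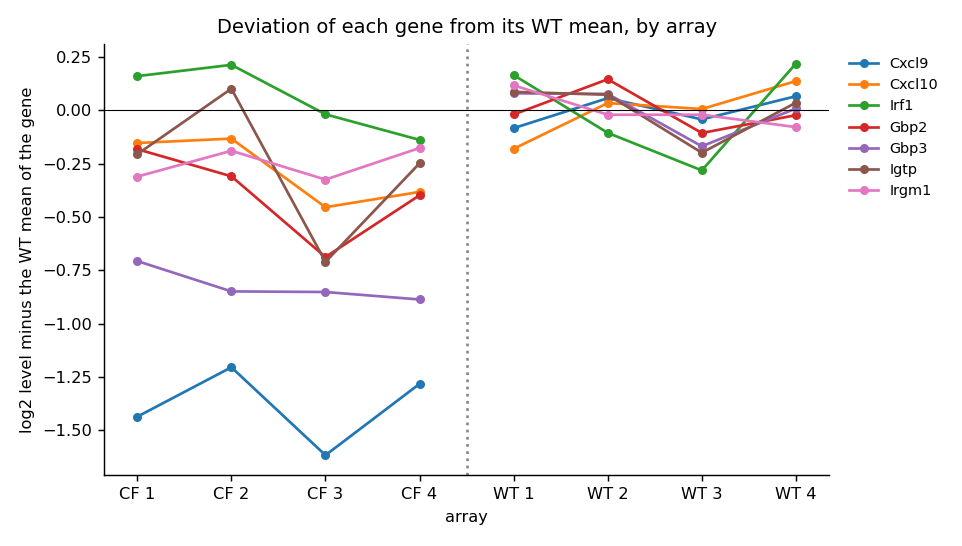
Deviation of each of the 7 tested genes from its own WT mean (vertical axis, log2) on the 4 CF and 4 WT arrays (horizontal axis). Lines only join the points of a gene within a genotype, as the arrays have no order. Cxcl9 and Gbp3 lie far below 0 on every CF array, and CF 3 is the lowest CF array for 5 of the 7 genes.

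Within each genotype, single arrays were often the lowest or highest. CF 3 was the lowest CF array for 5 of the 7 tested genes, namely Cxcl9, Cxcl10, Gbp2, Igtp and Irgm1, and CF 2 was the highest CF array for 4. WT 3 was the lowest WT array for 4 of the 7. Averaged over the 7 genes, the level relative to the WT mean of each gene was -0.40, -0.34, -0.67 and -0.50 in CF 1 to CF 4, and 0.02, 0.04, -0.12 and 0.05 in WT 1 to WT 4. The average over genes thus lay lower on every CF array than on any WT array, with Cxcl9 and Gbp3 adding the most to it.

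Upstream of these genes, neither the receptor chains nor their kinases passed the test on all 8 arrays. Ifng itself was under background in both genotypes, at 6.33 ± 0.05 in CF and 6.33 ± 0.07 in WT. Of 16 signalling genes looked for, 15 had a named probe and 11 were tested, of which 1 fell, 0 rose and 10 did not pass, with a median difference of 0.15. A single faller among 11 is near the 8.78% of all tested genes called lower. Ifngr1 differed by 0.13 ± 0.07 SE and Ifngr2 by 0.27 ± 0.11 SE. Jak1 differed by 0.16 ± 0.14 SE and Jak2 by -0.11 ± 0.10 SE. None of them passed on all 8 arrays, while Ifngr2 passed as higher without WT 1 (limma adjusted p = 0.0324). Socs1, a feedback inhibitor of the pathway, was under background. Among the interferon regulatory factors, Irf2, a counterpart of Irf1 at the same sites, differed by -0.09 ± 0.07 SE, and Irf8, of macrophages and B cells, by 0.15 ± 0.07 SE, neither passing.

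The single faller was Irf9, a DNA-binding subunit of the complex that acts at the ISRE. It averaged 8.29 ± 0.32 in CF livers and 8.76 ± 0.03 in WT livers (difference -0.46 ± 0.14 SE, limma adjusted p = 0.0455). Its call was kept without CF 1 and without CF 2 and lost without each of CF 3, CF 4, WT 1, WT 2, WT 3 and WT 4, with adjusted p up to 0.108. Without WT 3 and CF 1 together it was 0.0909.

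Of 22 other GTPase names looked for, 14 had a named probe and 6 were tested, with 1 faller, Gbp7, and 0 risers. Among these 6 the median difference was -0.24 and 5 differences were below 0. Among 22 other effectors, which include the Cxcr3 receptor gene, 18 were tested, of which 3 fell and 2 rose, with a median difference of -0.07. Of all tested genes 8.78% were called lower, which stands beside the 1 faller of 6 and the 3 of 18. The share of risers is near the 11.0% of all tested genes called higher. The fallers were Cd74, Tap2 and Tapbp. Psmb8, Psmb9, Psmb10, Psme1, Psme2, Tap1 and B2m, which also act in antigen processing and presentation, did not pass on all 8 arrays. Without CF 1, Psmb9 and Tap1 passed as lower (limma adjusted p = 0.0237 and 0.043), as did Psmb10 without CF 4 (0.0445). Psmb9 also passed without WT 3 and CF 1 together (0.0300). Cd74, the invariant chain of MHC class II, averaged 9.03 ± 0.40 in CF livers and 9.65 ± 0.07 in WT livers (difference -0.62 ± 0.17 SE, limma adjusted p = 0.0333). Tap2, of the peptide transporter, differed by -0.29 ± 0.08 SE (adjusted p = 0.0377) and Tapbp, which encodes tapasin, by -0.34 ± 0.10 SE (adjusted p = 0.0419). Leaving out CF 2, CF 3, WT 1, WT 2 or WT 4 gave 0 fallers in the list, and leaving out WT 3 gave 1. Tap2 passed in 0 of the 8 fits on fewer libraries (adjusted p up to 0.0883), Tapbp in 2 and Cd74 in 1. Without WT 3 and CF 1 together, adjusted p was 0.0863 for Tap2 and 0.0660 for Tapbp. The risers were Ccl5, a chemokine of T and NK cells (0.57 ± 0.12 SE, adjusted p = 0.0105), and Casp4, an inflammatory caspase (0.30 ± 0.06 SE, adjusted p = 0.00889). Without WT 3 and CF 1 together, Casp4 had adjusted p = 0.0794. Cxcr3, the receptor of Cxcl9 and Cxcl10, differed by 0.08 ± 0.09 SE at a level near background, and Cxcl11, another ligand of that receptor, was under background.

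Genes of the type I interferon response were also examined, 26 in all, of which 24 had a named probe. Of 19 tested, 10 fell, 0 rose and 9 did not pass, with a median difference of -0.35. Over all tested genes 8.78% were called lower, and the median difference was 0.02. The ubiquitin-like modifier Isg15 averaged 7.29 ± 0.15 in CF livers and 8.14 ± 0.21 in WT livers (difference -0.85 ± 0.11 SE, limma adjusted p = 0.00139), and Ifit3, an antiviral tetratricopeptide protein, differed by -0.81 ± 0.13 SE (adjusted p = 0.00294). Its relative Ifit2 differed by -0.40 ± 0.07 SE, the oligoadenylate synthetase-like Oasl2 and Oasl1 by -0.63 ± 0.12 SE and -0.57 ± 0.12 SE, and Rsad2, which encodes viperin, by -0.61 ± 0.12 SE. These 6 passed whichever of the 8 libraries was omitted. Without WT 3 and CF 1 together 6 of the list fell, and Oasl1 had adjusted p = 0.0729.

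**Figure D4:**
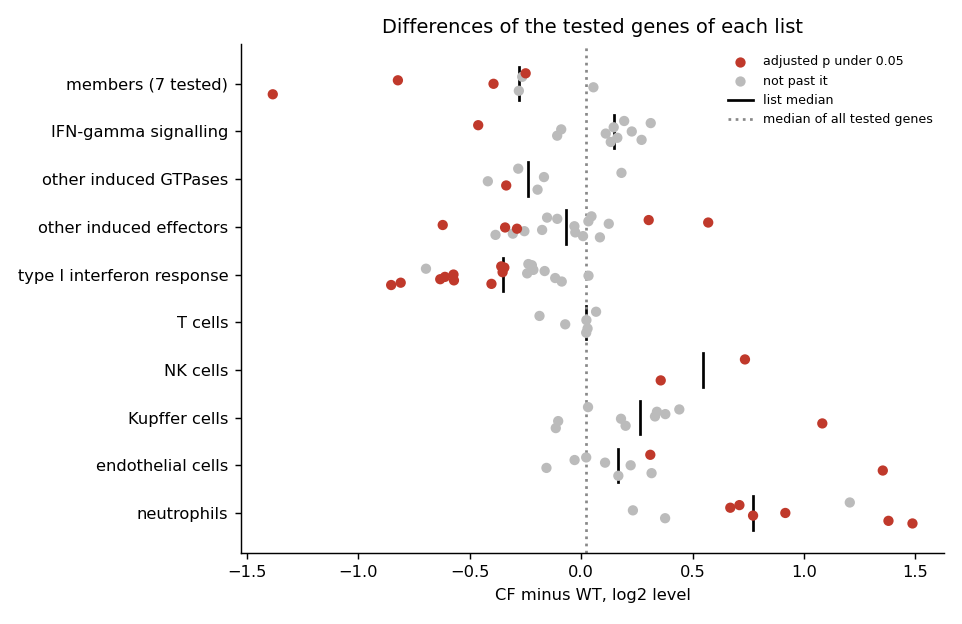
Difference in log2 level, CF minus WT (horizontal axis), of the tested genes of each list, 1 point per gene, red where adjusted p was under 0.05. Black ticks are list medians and the dotted line is the median over all tested genes, 0.02. The set and the type I interferon genes lie mostly left of that line, and neutrophil markers lie right of it.

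Of the markers of other cell types tested on all 8 arrays, 0 fell, and their risers stand beside 11.0% of all tested genes called higher. The T cell marker Thy1 passed as lower without WT 4 (adjusted p = 0.0464) and the macrophage marker Adgre1 without WT 3 and CF 1 together (adjusted p = 0.0423). Of 6 tested T cell markers 0 passed, with a mean level over the 11 measured of 6.46 to 6.52 in CF and 6.35 to 6.56 in WT, near background, and Cd4 and Cd8a under it. Of 12 NK cell markers 10 were above background on fewer than 4 arrays and were not tested. Of these, Ncr1 and Gzma were under it on every array, while Nkg7 was above it on 3 CF arrays and Tbx21 on 1 WT array. The 2 tested both rose, Prf1, which encodes perforin, by 0.73 ± 0.13 SE (limma adjusted p = 0.00455) and Klrd1, an NK receptor chain, by 0.36 ± 0.07 SE (adjusted p = 0.00775). Klrd1 was above background on 3 of the 4 WT arrays. The mean level over the 12 was 6.40 to 6.41 in CF and 6.28 to 6.33 in WT. Both ranges lie under the background of 6.46, so no rise of the list as a whole was read from them. Of 10 tested Kupffer cell and macrophage markers 1 rose, the scavenger receptor Marco (1.08 ± 0.30 SE, adjusted p = 0.0347), whose arrays overlapped and which was lost without any of CF 1, CF 3, CF 4, WT 3 and WT 4 (adjusted p up to 0.0921) and without WT 3 and CF 1 together (0.143), and Clec4f, which is particular to Kupffer cells as background, did not pass. Their mean level was 8.64 to 9.10 in CF and 8.47 to 8.70 in WT. Of 9 tested endothelial markers 2 rose, Lyve1 (1.35 ± 0.12 SE) and Oit3 (0.31 ± 0.06 SE), the second of which was lost without WT 3 and CF 1 together (adjusted p = 0.0666), with a mean level of 8.82 to 8.90 in CF and 8.57 to 8.68 in WT. Of 9 neutrophil markers 6 rose, with a mean level of 7.94 to 8.64 in CF and 7.29 to 7.51 in WT. Camp and Mpo, above background on 0 WT arrays, and Retnlg, above it on 1, entered the test through the CF arrays, and 3 rose where all 8 arrays had to be above background. Of 3 tested B cell markers and 7 tested hepatocyte markers 0 passed. The mean level of the B cell markers was near background, at 6.45 to 6.62 in CF and 6.40 to 6.57 in WT. The hepatocyte markers Apoa1, Ttr and Ahsg averaged 14.37, 14.37 and 14.38 over the arrays, near the highest value of 14.66. These 2 lists therefore do not show that the cells were unchanged. The part of cell composition in the falls of Cxcl9, Gbp3, Gbp2 and Irgm1 was not tested.

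The mean profile of the 7 tested genes, scaled to an SD of 1 over the 8 arrays, was set beside those of 9147 other tested genes. The closest 5 by mean absolute difference were Dbi, which encodes the acyl-CoA-binding protein, St6gal1, a sialyltransferase of the liver, Amz2, Elovl1, a fatty acid elongase, and Adal, at 0.17 to 0.20 SD, against a median of 1.12 SD over all. In each of the 5 the CF arrays lay below the WT arrays, which the choice by likeness to this profile largely fixes. Dbi, the nearest, was at 13.80 ± 0.25 in CF and 14.48 ± 0.12 in WT, lowest in CF 3.

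**Figure D5:**
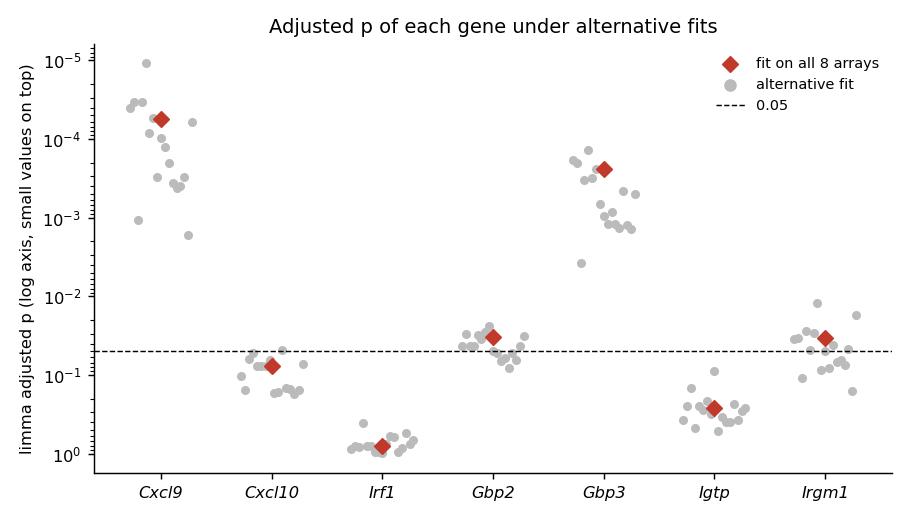
Limma adjusted p (log axis, small values on top) of the 7 tested genes in the fit on all 8 arrays (red diamonds) and under each alternative fit that gave a value (grey points). The dashed line is 0.05. Cxcl9 and Gbp3 lie above the line throughout, Gbp2 and Irgm1 lie on both sides of it, and Irf1 and Igtp lie below it throughout.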

How the data were processed

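Whole-liver total RNA of 4 CF and 4 WT samples from female mice was amplified to cRNA, labelled and hybridised to Illumina arrays of 1 colour, per the labels' protocols, with GenomeStudio per the submitters' processing notes. The deposited log2 values (25697 probes, 8 arrays, 0 missing) were used. Their sorted values agreed between arrays within 0.000307, as after quantile normalization. Background correction, the exact transform and software settings are not given in the sources used here, so differences near background depend on unknown steps. In the scanner table, 32 columns name chip positions that no label ties to a sample, and it was not used here.

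Genes were named from the platform annotation (23978 probes with 1 symbol, 1719 unnamed). Background was the mode of the values, 6.18, plus the one-sided 95% normal point of the spread below it, 0.173. The test took in the 12937 probes above 6.46 on 4 or more arrays, with 12 of the 18 probes of the set, and used limma 3.58.1 under R 4.3.3 (functions lmFit and eBayes, genotype as the single term, Benjamini-Hochberg over these probes, threshold 0.05). The fit was also run on simulated data in which probes varied independently of each other. That run does not cover effects shared by the probes of an array. The members, lists and tests were chosen with earlier results of these data known. From each list, genes past the threshold are named, up to 6 in order of adjusted p, and a fixed choice of signalling genes whatever their values, 1 of which is not reported here. The planned naming of the brightest and dimmest gene of each list was dropped, as levels of different probes are not comparable. For the neutrophil list not every passing gene is named. Within-array pairs of genes were an addition.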

Additional observations from a re-analysis of the deposited data

Results flagged for a closer look

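On the second probe of Irgm1, CF 4 stood apart from the other CF arrays, at 8.66 against 8.82 to 8.84. Its gap to the nearest CF array was 0.872 of the range of the 4 CF arrays, above Dixon's critical value for 4 samples. The 12 tested probes of the set gave 24 such groups and this was the 1 past that value, where chance gives about 1 in 20. On the brightest probe of Irgm1, CF 4 was the highest CF array.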

How the results depend on the processing

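Each of the 7 tested genes was refitted with libraries left out, without or with a stricter probe filter, with array weights, the replicate number as a block, a trended robust prior, values floored at background, cyclic loess or the mean of probes. Cxcl9 and Gbp3 stayed lower and past the threshold in 17 of 17. Gbp2 was lower in 17 and past it in 11, and Irgm1 in 17 and 10. The count of fallers, 4 on all arrays, ranged from 2 to 4 as single libraries were left out and was 2 at a threshold of 0.01. Without WT 1 it took in Cxcl10 but neither Gbp2 nor Irgm1. The count was 3 with the replicate block, where Irgm1 had adjusted p = 0.110 and the other calls of the set kept their side. Deviations of equal-numbered arrays correlated at -0.33, 0.06, -0.29 and 0.09, so the numbers were not taken as pairs. Irf1 ranged from -0.0391 (without WT 3) to 0.128 (without WT 4) as single libraries were left out and turned to -0.0745 without WT 3 and CF 1. The cause was not tested. The brightest 2 probes of Irgm1 fell on either side of the threshold. Cxcl10 gave no value when probes had to be above background on all 8 arrays, and Iigp1 was fitted only without a filter (adjusted p = 0.983). Signalling risers numbered 1, not 0, with array weights, the floor, the mean of probes, a threshold of 0.1 and without WT 1. The riser was Ifngr2 without WT 1, and Ptpn11 at a threshold of 0.1 (limma adjusted p = 0.0564). Type I fallers numbered 5 at a threshold of 0.01, and other GTPases had 2 fallers without a filter. The call of Irf9 was lost without a filter, with the block, array weights, the floor and the mean of probes. Neutrophil risers numbered 3, not 6, and NK risers 1, not 2, when all 8 arrays had to be above background, and the other effectors had 1 faller with the block. Small differences of dim probes such as Cxcl10 are limited by signal over background.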
